A study of Mus musculus with 7 samples.

Results

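The bone morphogenetic protein (BMP) genes described here are 10 genes chosen by symbol: the ligands Bmp2, Bmp4 and Bmp7, the receptor Bmpr1a, the inhibitors Smad6 and Grem1, and the Id genes Id1, Id2, Id3 and Id4. All 10 were found among the 22180 genes measured, each by 1 probe set. The samples were mouse cells of strain 129: embryonic stem cells (ESC), induced pluripotent stem cells (iPSC) and embryonic fibroblasts (MEF), each either wild type (WT) or Nanog knockout (KO). There were 2 arrays each for WT and KO iPSC, and 1 each for WT ESC, WT MEF and KO MEF. iPSC are somatic cells reprogrammed to an ESC-like state, and Nanog is a homeobox factor that helps hold cells in that state. The design sets KO iPSC against WT pluripotent cells. Which allele removes Nanog is not given in the sources used here. Media for ESC and MEF and a 2i/LIF medium are named in the labels, but not which sample had which, so medium and genotype cannot be told apart. They call the iPSC replicates biological, but do not say whether these are separate lines, and p-values then measure only the spread between these samples.

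BMP ligands bind paired type I and type II serine/threonine kinase receptors, which phosphorylate SMAD1, SMAD5 and SMAD9. With SMAD4 these enter the nucleus and switch on targets, among them the Id genes and Smad6. Id proteins have a helix-loop-helix but no DNA-binding region, and they hold E proteins away from DNA. In mouse ESC, BMP4 in serum is known to help LIF hold back neural differentiation through Id genes, and Nanog can replace that input when overexpressed.

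Because Id genes and Smad6 are textbook targets of BMP-activated SMADs, the 250 bases before the start site of 4 of them are printed from RefSeq (GRCm38.p6), 5′ to 3′ on the gene's strand. Id2 is read from chr12:25096093-25096342 (minus strand), Id3 from chr4:136143572-136143821 (plus), Id4 from chr13:48260866-48261115 (plus) and Smad6 from chr9:64022060-64022309 (minus). Capitals mark 2 motifs: GGCGCC, a GC-rich SMAD motif, and the E-box CANNTG, bound by E proteins.
Id2: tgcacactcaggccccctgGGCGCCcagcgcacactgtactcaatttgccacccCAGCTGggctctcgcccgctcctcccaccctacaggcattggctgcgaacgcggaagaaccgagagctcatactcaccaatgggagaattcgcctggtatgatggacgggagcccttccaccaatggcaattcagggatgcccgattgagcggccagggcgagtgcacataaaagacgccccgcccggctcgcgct
Id3: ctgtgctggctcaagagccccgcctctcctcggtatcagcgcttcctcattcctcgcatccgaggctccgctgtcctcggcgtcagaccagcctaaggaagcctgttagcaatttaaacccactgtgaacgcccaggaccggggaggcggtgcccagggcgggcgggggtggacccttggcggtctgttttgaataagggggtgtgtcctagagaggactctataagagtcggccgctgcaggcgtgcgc
Id4: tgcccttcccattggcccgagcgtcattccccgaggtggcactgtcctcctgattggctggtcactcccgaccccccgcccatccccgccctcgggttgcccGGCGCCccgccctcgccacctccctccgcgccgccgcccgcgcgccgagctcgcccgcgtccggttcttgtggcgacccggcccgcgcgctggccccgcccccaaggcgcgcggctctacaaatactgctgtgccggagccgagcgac
Smad6: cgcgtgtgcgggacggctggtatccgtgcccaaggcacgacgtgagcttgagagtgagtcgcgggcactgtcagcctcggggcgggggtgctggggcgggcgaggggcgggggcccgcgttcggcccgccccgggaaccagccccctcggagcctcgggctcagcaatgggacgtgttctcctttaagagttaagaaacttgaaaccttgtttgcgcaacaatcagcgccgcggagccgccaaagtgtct
Windows were matched for 7 of the 10 members and searched on both strands. GGCGCC occurred once each in Id2 (position -231 from the start), Id4 (-148), Bmpr1a (-198) and Grem1 (-78), and in 9.59% of 32851 windows of the same length. The gapped form GCCGNCGC occurred in Id4, Bmpr1a and Grem1, and in 6.89% of windows; it overlapped GGCGCC in Bmpr1a and Grem1. The short SMAD core GTCT occurred in Id2, Id3, Smad6, Bmp4 and Grem1, but 82.9% of windows hold it. An E-box was found in Id2 (-196) and in Bmp4 (-188, -177 and -123), against 66.2% of windows. The 4 printed windows had a GC content of 62.8% (Id2 and Id3), 75.6% (Id4) and 66.8% (Smad6), above the median window at 52.4%. Bmpr1a (78.8%), Grem1 (72.0%) and Bmp4 (63.2%) also lay above it. The shares over all windows were not matched for GC content. A match describes these letters only, since binding was not measured.

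Values are log2 intensities, and a difference of 1 is a 2-fold change. The array medians lay between 7.05 and 7.13. A yardstick for background was the 95th percentile, on each array, of 1373 genes for smell and pheromone receptors (olfactory and vomeronasal). It lay between 6.30 and 6.49, and 61.0% to 63.7% of all genes exceeded it. Nanog stood at 12.73 in ESC, 12.84 and 12.76 in WT iPSC, 7.50 and 7.44 in KO iPSC, 6.53 in WT MEF and 6.42 in KO MEF, a 39.4-fold fall in KO iPSC against the WT pluripotent arrays (limma adjusted p = 3.57e-05). All 9 pluripotency markers listed exceeded background on the 5 pluripotent arrays, against 1 in WT MEF and 2 in KO MEF. The WT iPSC arrays differed by over 2-fold in 350 genes, the KO iPSC arrays in 4.

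Against the 3 WT pluripotent arrays, KO iPSC had more Bmp7 RNA and less Smad6 and Id1 RNA. Bmp7 rose 1.77-fold, Smad6 fell 2.42-fold and Id1 fell 1.77-fold. Thus 3 of 10 members passed the threshold of 0.05 on limma's adjusted p, 1 upward and 2 downward. Of all genes 15.7% passed, 6.89% upward and 8.81% downward. The median difference of the 10 members was -0.08, and that of all genes 0.03. KO and WT values did not overlap for 7 members (Bmp4, Bmp7 and Id4 higher, Bmpr1a, Id1, Id2 and Smad6 lower in KO), as for 51.6% of all genes (28.4% higher, 23.2% lower). In bulk RNA, fewer cells of a type and less RNA per cell cannot be told apart.

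**Figure D1:**
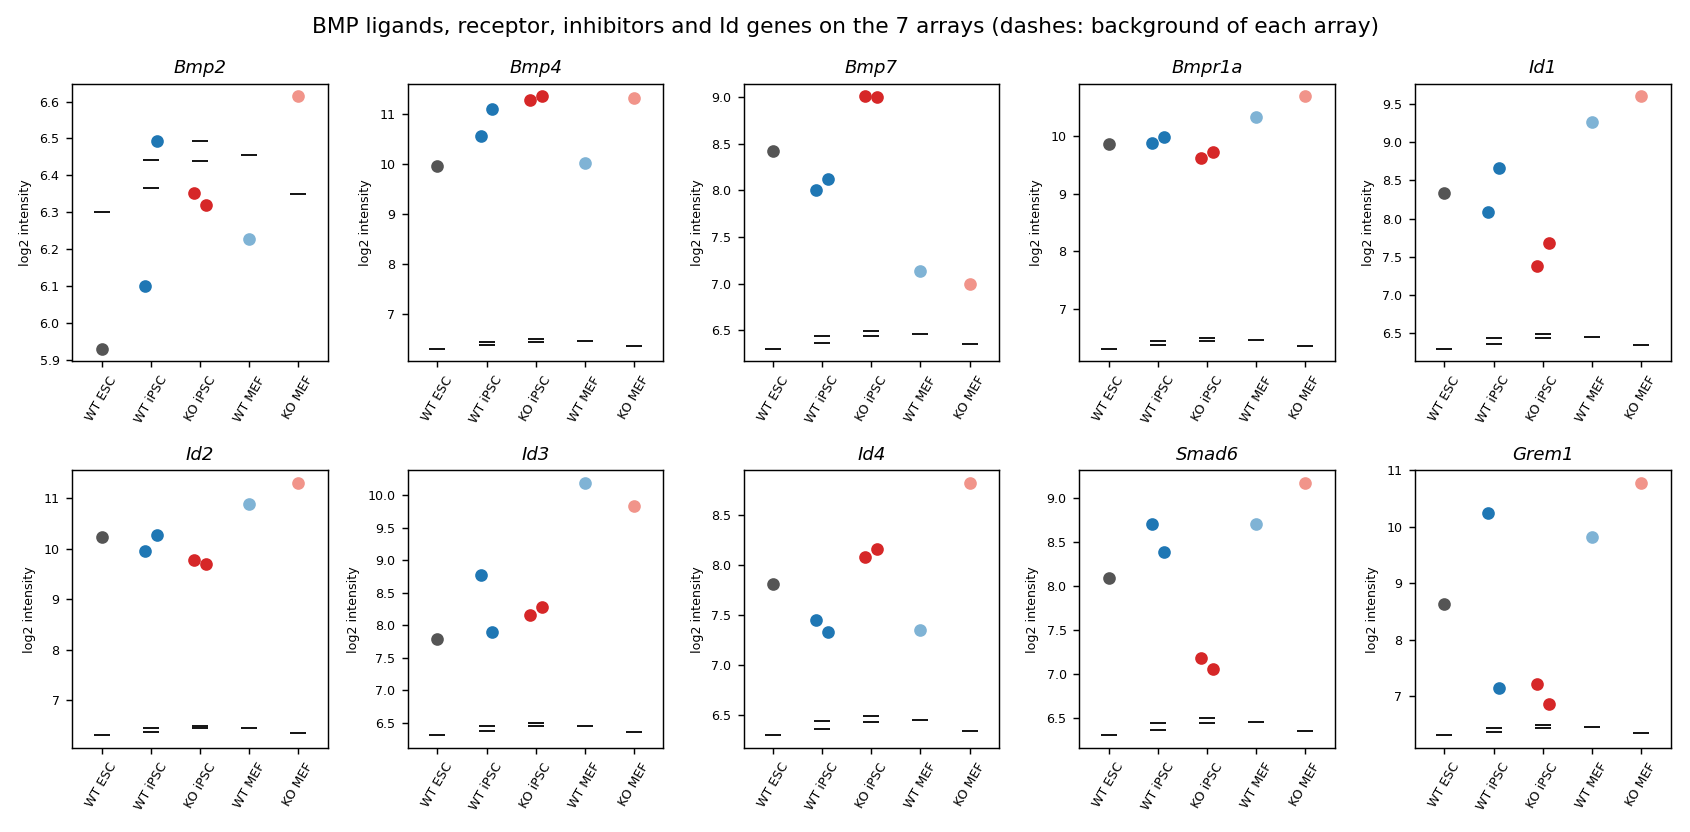
Log2 intensity of each member on the 7 arrays, 1 panel per gene and 1 point per array, grouped by cell type and genotype, with a dash at each array's background. The KO iPSC points lie above all 3 WT pluripotent points for Bmp4, Bmp7 and Id4, and below them for Bmpr1a, Id1, Id2 and Smad6.

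Bmp7 encodes a ligand of the BMP5/6/7 group. It stood at 8.42 in ESC, 8.01 and 8.12 in WT iPSC, 9.01 and 9.01 in KO iPSC, 7.14 in WT MEF and 6.99 in KO MEF. The KO iPSC arrays were the highest of the 7 and the MEF arrays the lowest. The log2 difference between KO iPSC and the WT pluripotent arrays was 0.83 (SE 0.14, n = 2 and 3, limma adjusted p = 0.0145), and against WT iPSC alone it was 0.95 (SE 0.09, n = 2 and 2, limma adjusted p = 0.00443). Both calls ended without either KO iPSC array. The first also ended without WT iPSC replicate 2 (limma adjusted p = 0.0516).

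Bmp4 encodes the ligand used to support ESC in culture. Its level was 9.96 in ESC, 10.55 and 11.11 in WT iPSC, 11.28 and 11.36 in KO iPSC, 10.03 in WT MEF and 11.31 in KO MEF. Both KO iPSC arrays lay above every WT pluripotent array, but ESC and the WT iPSC arrays spanned more than 1 unit. The difference of 0.78 (SE 0.32, 95% interval -0.0040 to 1.56) did not pass (limma adjusted p = 0.160). Within iPSC it was 0.49 (SE 0.19, limma adjusted p = 0.163). The WT arrays decided its size: it was 0.21 without WT iPSC replicate 1 and 0.77 without replicate 2. The comparison with the WT pluripotent arrays without ESC uses the same iPSC arrays, and gave the same 0.49.

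Bmp2, the closest relative of Bmp4, was near background: it exceeded the yardstick only on WT iPSC replicate 2 (6.49) and KO MEF (6.61). On the other 5 arrays it lay between 5.93 and 6.35. Its difference between KO iPSC and the WT pluripotent arrays was 0.16 (SE 0.17, limma adjusted p = 0.569). The other 9 members exceeded background on all 7 arrays.

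Bmpr1a encodes the type I receptor that BMP2 and BMP4 bind most strongly. It stood at 9.87 in ESC, 9.88 and 9.98 in WT iPSC, 9.63 and 9.72 in KO iPSC, 10.34 in WT MEF and 10.70 in KO MEF. The KO iPSC arrays were lowest and the MEF arrays highest. The difference of -0.23 (SE 0.08, 95% interval -0.44 to -0.03) did not pass (limma adjusted p = 0.123).

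Smad6 encodes an inhibitory SMAD that blocks BMP receptors and is itself induced by BMP signals. Its values were 8.09 in ESC, 8.70 and 8.38 in WT iPSC, 7.18 and 7.06 in KO iPSC, 8.69 in WT MEF and 9.17 in KO MEF. Both KO iPSC arrays lay below all 5 others. The difference was -1.27 against the WT pluripotent arrays (SE 0.18, limma adjusted p = 0.00941). Against WT iPSC it was -1.42 (SE 0.13, 2.68-fold, limma adjusted p = 0.00444). The first call ended without either KO iPSC array, the second without KO iPSC replicate 2.

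Grem1 encodes Gremlin 1, a secreted protein that binds BMP2, BMP4 and BMP7 outside the cell. It stood at 8.64 in ESC, 10.25 and 7.14 in WT iPSC, 7.22 and 6.86 in KO iPSC, 9.82 in WT MEF and 10.78 in KO MEF. The WT iPSC replicates were 3.10 apart, a gap reached by only 0.041% of genes, and replicate 2 lay between the KO iPSC arrays. The difference of -1.64 (SE 0.84) did not pass (limma adjusted p = 0.250), and became -0.85 without WT iPSC replicate 1 and -2.40 without replicate 2 (limma adjusted p = 0.289 and 0.0679). Within iPSC it was -1.65 (SE 0.98, limma adjusted p = 0.324), but -0.10 without replicate 1 and -3.21 without replicate 2.

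Fibroblast markers also differed between the WT iPSC replicates. The median of 10 such genes was 8.32 in ESC, 9.46 and 7.54 in WT iPSC, 7.11 and 6.92 in KO iPSC, 11.88 in WT MEF and 12.25 in KO MEF. Their summed intensity on the log2 scale was 10.94 to 12.99 on the WT pluripotent arrays, 10.42 to 10.43 in KO iPSC and 14.97 to 15.61 in MEF. Postn, Lum and Dcn lay below background in both KO iPSC arrays and also in WT iPSC replicate 2. Lum exceeded background only in KO MEF. Against the WT pluripotent arrays, 2 of the 10 fell in KO iPSC (Col1a1, at -2.44, and Fbln2, at -2.95) and 0 rose. The part of these markers in the members' differences was not tested. Among the 3 WT pluripotent arrays, WT iPSC replicate 1 had the highest fibroblast median. It also had the highest Grem1, Id3 and Smad6, and the lowest Id1, Id2 and Bmp7.

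**Figure D2:**
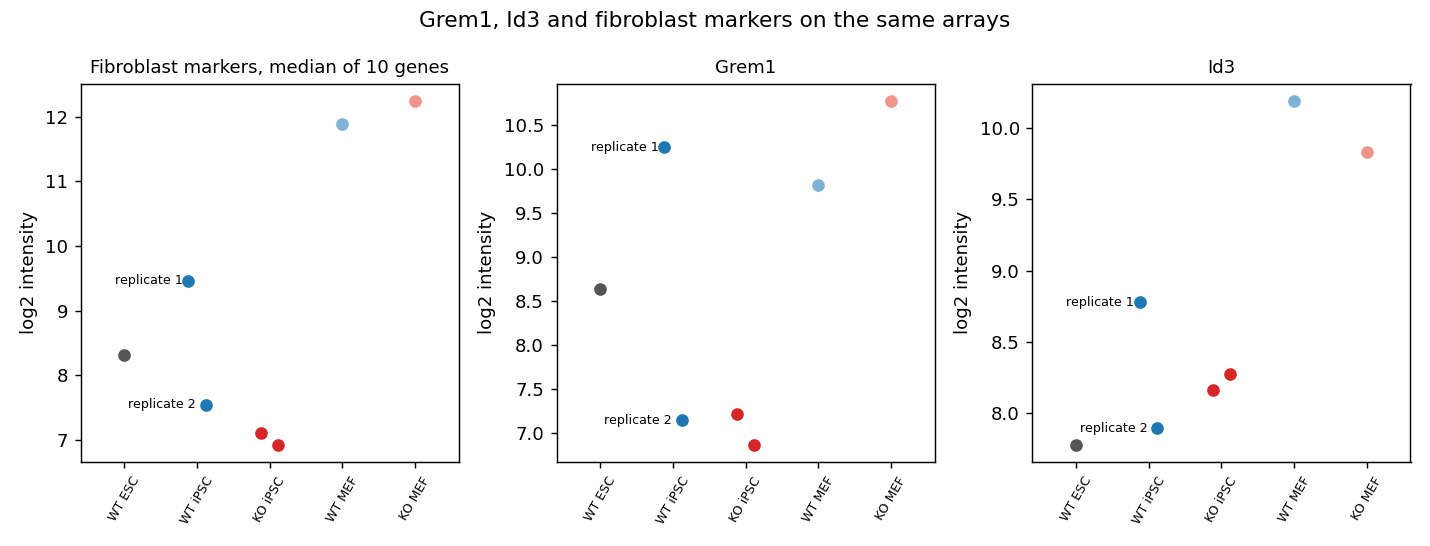
Log2 intensity on each array of the fibroblast marker median (10 genes), Grem1 and Id3, with the WT iPSC replicates marked. In all 3 panels WT iPSC replicate 1 lies above replicate 2, by 3.10 for Grem1 and 0.89 for Id3.

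Id1, the Id gene most often read as a BMP response, stood at 8.33 in ESC, 8.08 and 8.67 in WT iPSC, 7.38 and 7.68 in KO iPSC, 9.26 in WT MEF and 9.60 in KO MEF. The KO iPSC arrays were lowest and the MEF arrays highest. It fell by 0.83 in KO iPSC against the WT pluripotent arrays (SE 0.19, limma adjusted p = 0.0402). The call lay close to the threshold: it ended with each array centred on its median (0.0542), under quantile normalization (0.0637), without ESC (0.0652) and without WT iPSC replicate 2 (0.0688), all limma adjusted p-values. It also ended without either KO iPSC array, where the difference was -0.67 without replicate 1 and -0.98 without replicate 2. Within iPSC, which gives the same result as leaving out ESC, the difference of -0.84 (SE 0.22) did not pass (limma adjusted p = 0.0652). It was -1.13 without WT iPSC replicate 1 and -0.55 without replicate 2. Those fits hold no spread among WT iPSC, so their p-values are not read.

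Id2, which like Id1 restrains E proteins, was 10.23 in ESC, 9.97 and 10.28 in WT iPSC, 9.77 and 9.71 in KO iPSC, 10.89 in WT MEF and 11.31 in KO MEF. Again the KO iPSC arrays were lowest and the MEF arrays highest. The difference of -0.42 (SE 0.12) did not pass (limma adjusted p = 0.0686), but passed without WT iPSC replicate 1, at -0.51 (limma adjusted p = 0.0172).

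Id3 stood at 7.78 in ESC, 8.78 and 7.89 in WT iPSC, 8.16 and 8.28 in KO iPSC, 10.19 in WT MEF and 9.83 in KO MEF. The KO iPSC values fell between the WT iPSC replicates. The difference was 0.07 (SE 0.31, 95% interval -0.69 to 0.82, limma adjusted p = 0.906). Within iPSC it was -0.12, but 0.33 without WT iPSC replicate 1 and -0.56 without replicate 2.

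Id4, which can oppose the other Id proteins, ran the other way. It stood at 7.81 in ESC, 7.46 and 7.33 in WT iPSC, 8.09 and 8.16 in KO iPSC, 7.35 in WT MEF and 8.82 in KO MEF. Both KO iPSC arrays lay above every WT array of any cell type. Against WT iPSC it rose by 0.73 (SE 0.09, 1.66-fold, limma adjusted p = 0.00965). Against the WT pluripotent arrays, where ESC was the highest, the difference of 0.59 (SE 0.15) narrowly missed the threshold (limma adjusted p = 0.0537) and passed with centred arrays (0.0420).

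Within iPSC alone, 3 of 10 members passed: Bmp7 and Id4 rose and Smad6 fell. Of all genes 16.5% passed, 6.93% upward and 9.55% downward. KO and WT values did not overlap for 7 members (3 higher, 4 lower), as for 61.3% of all genes (33.2% higher, 28.2% lower). The median difference was -0.19 for the members and 0.03 for all genes. This comparison shares both KO arrays and both WT iPSC arrays with the one above. Its results are the same as those of the one above without ESC, so the 2 are not separate checks. Both counts depended on having 2 KO iPSC arrays: they fell without replicate 1 or 2, and so did the counts over all genes. Those fits leave 1 KO iPSC array and their error rests on WT arrays alone, so their counts are not read here. The WT arrays mattered too: without WT iPSC replicate 2, 1 member passed against the WT pluripotent arrays. The count over all genes then fell from 3483 to 2230. Within iPSC, leaving out a WT iPSC array leaves 1 in that group. The error then rests on the KO iPSC pair alone, which lay closer together than the WT pair, so those counts are not read here.

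**Figure D3:**
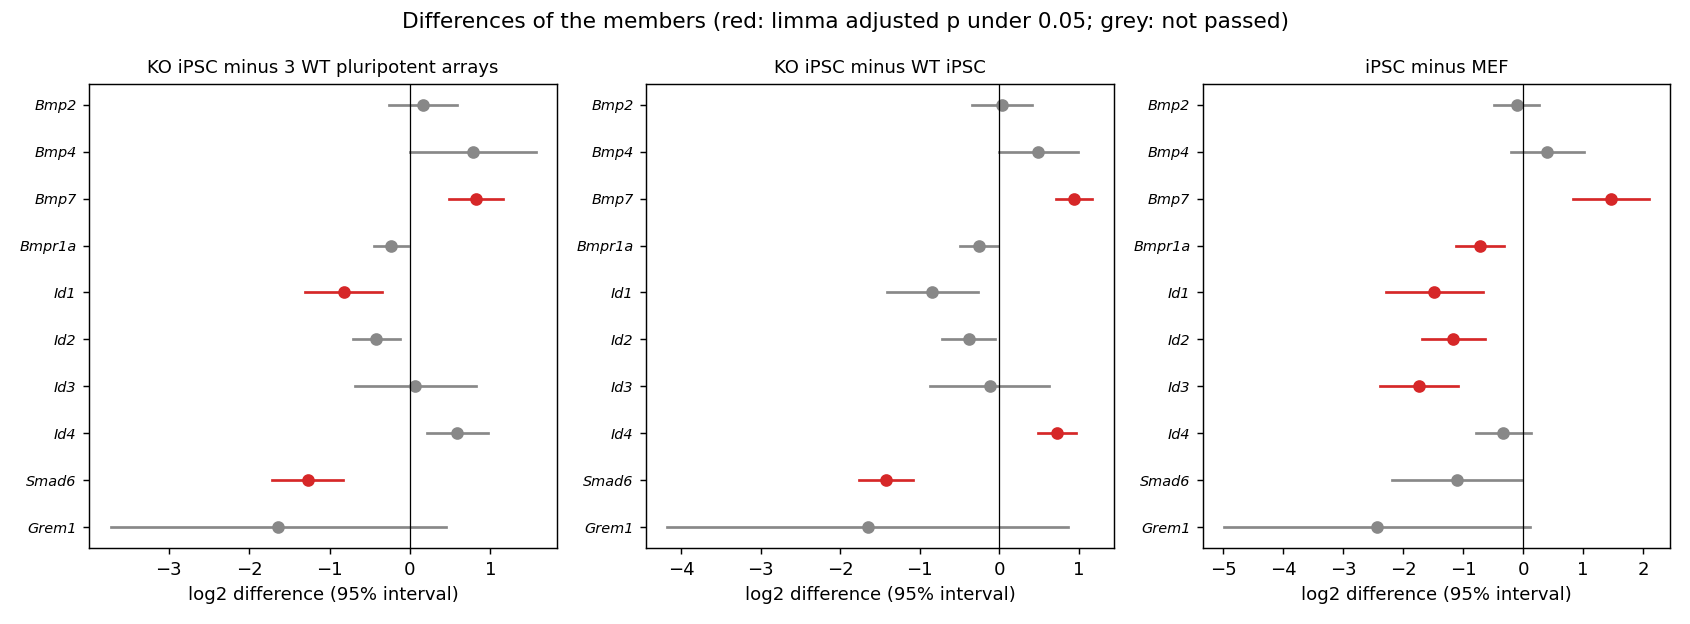
Log2 difference of each member with its 95% interval from limma, for KO iPSC minus the WT pluripotent arrays, KO iPSC minus WT iPSC, and iPSC minus MEF; red points passed the adjusted threshold. Bmp7 and Smad6 passed in both KO comparisons, and the Grem1 intervals are the widest.

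Other genes of the pathway were taken from a list of 54, of which 50 were measured. Against the WT pluripotent arrays, 3 rose and 4 fell in KO iPSC (14.0% of the 50, beside 15.7% of all genes), with a median of 0.02. Within iPSC, 5 rose and 5 fell (20.0%, beside 16.5% of all genes), with a median of -0.01. The inhibitors did not share a direction: 1 of 17 rose and 3 fell in each comparison.

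Among these inhibitors, Bambi, a pseudoreceptor that lacks a kinase, lay between 8.93 and 9.26 on the WT pluripotent arrays and at 10.06 and 9.95 in KO iPSC. It rose by 0.93 (SE 0.12, limma adjusted p = 0.00709). Smad7, the inhibitory SMAD that also blocks TGF-beta receptors, fell by 0.68 (SE 0.08, limma adjusted p = 0.0057), from 10.41, 10.45 and 10.44 to 9.68 and 9.81. Smurf1, a ubiquitin ligase for SMAD1 and SMAD5, fell by 0.59 (SE 0.11, limma adjusted p = 0.0238). Fstl1, a secreted follistatin-like protein, fell by 0.96 (SE 0.19, limma adjusted p = 0.0258) and was far higher in MEF (12.13 and 12.40) than on any pluripotent array (8.93 to 10.30).

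Of the 4 signal transducers, Smad5 fell by 0.49 (SE 0.12, limma adjusted p = 0.0441) and the other 3 did not pass. The Smad5 call ended with centred arrays (0.0624), under quantile normalization (0.0900), with trend and robust fitting (0.0579) and without WT iPSC replicate 2 (0.0775), all limma adjusted p-values. Rgmb, a BMP co-receptor, was between 8.29 and 8.62 on the WT pluripotent arrays, 9.34 and 9.43 in KO iPSC, and rose by 0.95 (SE 0.12, limma adjusted p = 0.00634). Of 3 E proteins, Tcf4 rose by 0.43 (SE 0.09, limma adjusted p = 0.0341). Each of these 7 calls ended without KO iPSC replicate 1 and also without replicate 2 (limma adjusted p from 0.0607 to 0.265). Those of Smurf1 (0.0710) and Tcf4 (0.0886) also ended without WT iPSC replicate 2.

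Another 3 genes passed in the fit within iPSC and missed the threshold against the WT pluripotent arrays. The E protein Tcf12 rose by 0.50 (SE 0.10, limma adjusted p = 0.0288, against 0.0783 with ESC among the WT arrays). The ligand Bmp8a rose by 0.57 (SE 0.11, limma adjusted p = 0.0283, against 0.0609). Gata2, a BMP target in blood and trophoblast, fell by 0.85 (SE 0.13, limma adjusted p = 0.0158, against 0.0843). All 3 calls ended without either KO iPSC array (limma adjusted p from 0.0997 to 0.216).

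**Figure D4:**
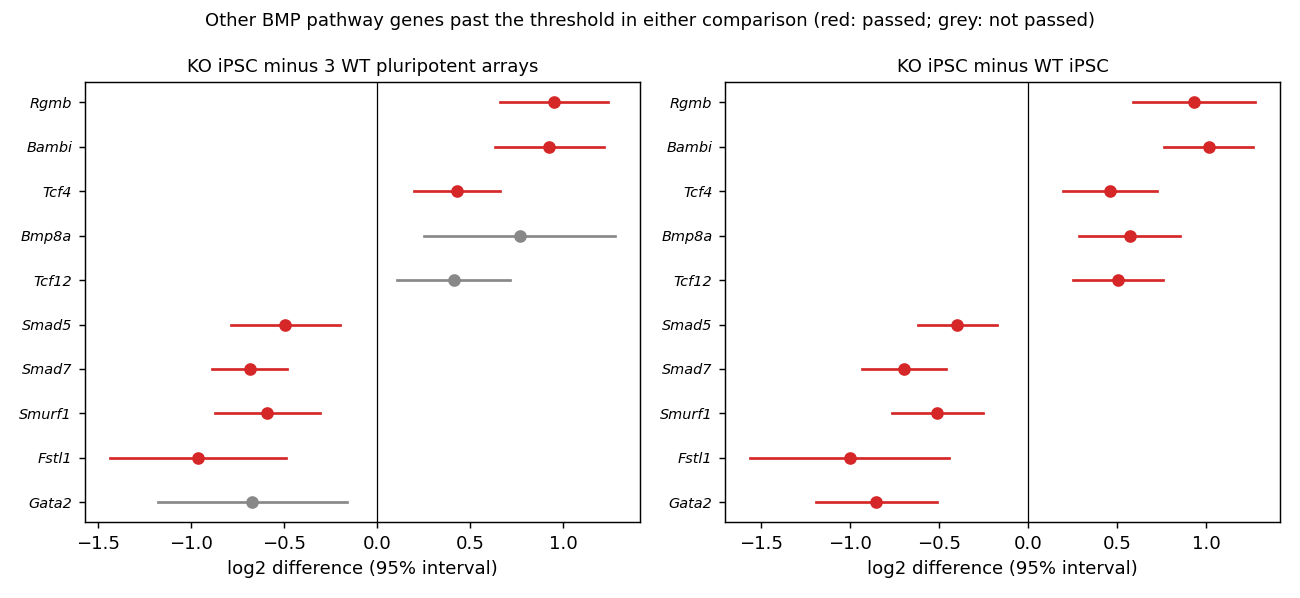
Log2 difference with its 95% interval for the 10 further pathway genes that passed in either KO comparison; red points passed. Rgmb and Bambi lie highest in both panels, and Smad7, Smurf1, Smad5 and Fstl1 lie below 0 in both.

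Markers of early lineages were read beside these values. Of 6 primitive endoderm markers, Gata6 rose by 1.15 and Dab2 fell by 1.02 in KO iPSC against the WT pluripotent arrays, and the other 4 did not pass. Their summed intensity on the log2 scale was 9.79 to 10.06 on the WT pluripotent arrays and 9.86 to 9.87 in KO iPSC. In WT and KO MEF it was 11.64 and 12.56, so this sum is not particular to endoderm. Of the 9 pluripotency markers, Tdgf1 fell by 0.48 and Utf1 by 1.18. None of the trophectoderm, mesoderm or neuroectoderm markers measured (4, 3 and 3 genes) passed limma in this comparison. Within iPSC, Gata6, Dab2, Tdgf1 and Utf1 passed in the same directions. There Eomes (trophectoderm) also rose, and Hand1 (mesoderm), Sox7 (primitive endoderm) and Esrrb (pluripotency) also fell. The part of lineage markers in the members' differences was not tested.

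How far the WT pluripotent arrays differ among themselves was read from WT ESC against WT iPSC. With limma, 0 of 10 members passed, against 0.162% of all genes (0.0812% in each direction), and 4 members (Bmp4, Bmp7, Id4 and Smad6) had an unadjusted p under 0.05, as did 12.2% of all genes. Bmp4 was 0.87 lower in ESC (SE 0.24, limma adjusted p = 0.267). The ESC group has 1 array, taken to vary as the iPSC groups do. Without a WT iPSC replicate that group has 1 array too, and the error rests on the KO iPSC pair, so those counts are not read here.

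iPSC and MEF differed in 5 of the 10 members, while 30.7% of all genes passed (16.0% upward, 14.7% downward). Bmp7 was 2.77-fold higher in iPSC (1.47, SE 0.25, limma adjusted p = 0.00989). Id3 was 3.32-fold lower (limma adjusted p = 0.00636), Id1 2.78-fold lower (0.0210), Id2 2.24-fold lower (0.0114) and Bmpr1a 1.64-fold lower (limma adjusted p = 0.0223). The calls of Id1 and Bmpr1a ended without WT iPSC replicate 1 or either KO iPSC array. Groups of these 5 members did not overlap, as for 46.4% of all genes (25.7% higher, 20.7% lower). The members' median was -0.91, and that of all genes 0.03. Grem1 lay 2.43 lower in iPSC and did not pass (limma adjusted p = 0.138), but passed without WT iPSC replicate 1, at -3.28 (limma adjusted p = 0.0051). Of the 50 further pathway genes, 5 were higher and 21 lower in iPSC (52.0% of the 50), with a median of -0.41, among them 3 of 4 signal transducers (Smad1, Smad5 and Smad9), all lower.

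KO MEF were set against WT MEF without a test, since each genotype has 1 MEF array. Id4 was 1.46 higher in KO MEF (2.76-fold) and Bmp4 1.28 higher (2.44-fold), so 2 of 10 members were at least 2-fold apart, against 4.56% of all genes (2.80% higher, 1.77% lower). Grem1 was 0.96 higher. The other 7 members differed by -0.36 (Id3) to 0.47 (Smad6). The 2 arrays also differed in some fibroblast markers. Lum and Dcn, chosen here after their values were seen, had the largest gaps of the 10 listed. Lum stood at 5.09 in WT and 10.60 in KO MEF, and Dcn at 7.99 and 12.19. Col3a1 and Col6a1 were 1.68 and 1.19 higher in KO MEF, and the rest 0.04 (Fbln2) to 0.54 (Postn) higher. Nanog was near background in both, at 6.53 and 6.42, so its probe set cannot check the genotype label in MEF.

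The KO minus WT difference was set between the cell types by an interaction term, with each MEF array assumed to vary like the iPSC groups. Its SE and p therefore rest on the spread of the 4 iPSC arrays and hold no measure of spread among MEF. Here 2 of 10 members passed, against 8.55% of all genes (3.07% upward, 5.48% downward). For Bmp7 the difference was 0.95 in iPSC and -0.15 in MEF, an interaction of 1.09 (SE 0.15, limma adjusted p = 0.0219). For Smad6 it was -1.42 in iPSC and 0.47 in MEF, an interaction of -1.89 (SE 0.23, limma adjusted p = 0.0158). Bmp4 and Id4 were higher in KO in both cell types, and their interactions of -0.79 and -0.74 did not pass (limma adjusted p = 0.224 and 0.0595). Id1, at -0.84 in iPSC and 0.33 in MEF, did not pass either (limma adjusted p = 0.141). The calls of Bmp7 and Smad6 ended without either KO iPSC array. Without a WT iPSC replicate the error rests on the KO iPSC pair alone, so counts from those fits are not read here.

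Likeness of pattern was measured as the root mean square difference of mean-centred log2 values over the 7 arrays, among 7100 genes whose range was at least 1. The genes most like Id1 were Serinc5 (0.125), Abhd8 (0.130) and Mtus1 (0.131). Those most like Bmp4 were Nynrin (0.169), Fam43a (0.178) and Fndc10 (0.234). Among the members, to which no range limit was applied, the nearest pairs were Bmpr1a with Id2 (0.215) and Id1 with Id2 (0.253). Next came Bmp2 with Bmpr1a (0.314) and Id1 with Smad6 (0.383). The distance is not scaled to a gene's range, and Bmp2, near background, had a range of only 0.68. Its small distance to Bmpr1a therefore does not show a shared pattern. The member nearest to Grem1 was Smad6, at 0.959. These distances over 7 arrays of 5 groups are descriptions.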

How the data were processed

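Probe-set intensity values on a linear scale were deposited by the authors as 1 table. Per the submitters' processing notes, the tools were RMA and Affymetrix Expression Console 1.3.0.187. The plan had assumed log2 values, so log2 was taken here, with no further normalization. Of 33649 probe sets, 23521 carried 1 gene symbol, and the one with the highest mean stood for a gene (22180 genes). No column was unmapped (0).

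Genes were tested with limma 3.58.1 in R 4.3.3 (lmFit, eBayes, two-sided, Benjamini-Hochberg over all genes, threshold 0.05). The procedure was tested on simulated data whose spread was drawn from the KO iPSC pair for every array. That setting leaves out the wider spread of the WT iPSC pair (SD of log2 differences 0.32, against 0.15 for KO iPSC). KO iPSC were compared with 3 WT pluripotent arrays; KO with WT iPSC, ESC with WT iPSC and the interaction came from 1 fit of all 7 arrays; iPSC against MEF came from 6 arrays with genotype as a term. Precision is limited by how few arrays each group has.

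Named genes are the 10 members, Nanog, the pathway genes and up to 4 markers per list past the threshold in either KO comparison, and the 3 genes most like Id1 and Bmp4. Members and lists were chosen with earlier results of these data known. Alternatives covered scaling, a dim-gene filter, probe-set choice, the variance model, pairing and leaving out arrays. Promoter sequences are from RefSeq, GRCm38.p6.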

Additional observations from a re-analysis of the deposited data

Results flagged for a closer look

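The KO minus WT difference was compared between iPSC and MEF by an interaction term of limma, whose error rests on the spread of the iPSC arrays because each MEF genotype has 1 array. Of all genes 8.55% passed. Among the 10 members, Bmp7 differed by 1.0912 more in iPSC than in MEF (log2) and Smad6 had an interaction of -1.8925. Among the 50 further pathway genes, 3 passed. Bambi had an interaction of 1.7034 (SE 0.17, limma adjusted p = 0.0103). Smad5 had an interaction of -0.7798 (SE 0.15, limma adjusted p = 0.0437), which did not pass with centred arrays (0.0630), under quantile normalization (0.0725) or with trend and robust fitting (0.0627). Acvr2a, a type II receptor gene singled out after its values were seen, had the largest of the 3, -2.2779 (SE 0.21, limma adjusted p = 0.00905), and stood at 8.28 in WT MEF and 10.35 in KO MEF. These 5 calls ended without either KO iPSC array. Cell type markers passed too, all downward: 1 of 9 for pluripotency and 2 of 10 for fibroblasts (Lum and Dcn). So did 3 of 6 for primitive endoderm (Sox7, Dab2 and Pdgfra), also downward. For Lum the KO minus WT difference was -0.04 in iPSC and 5.51 in MEF, and for Pdgfra -0.07 and 3.103. For Sox7 it was -0.86 in iPSC and 0.15 in MEF, and for Dab2 -0.93 and 0.48. Dcn differed by -0.92 in iPSC and stood at 7.99 in WT MEF and 12.19 in KO MEF. Each MEF difference rests on 1 array per genotype.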

How the results depend on the processing

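Leaving out 1 array at a time moved the counts most. A group left with 1 array is taken to vary like the others. These counts therefore also depend on which iPSC pair still gives the error. Members past the threshold ranged from 0 to 4 for KO iPSC against the WT pluripotent arrays (341 to 4167 of all genes), 0 to 7 within iPSC (519 to 5979), 0 to 4 for ESC against WT iPSC (1 to 2289), 3 to 5 for iPSC against MEF (4405 to 5808) and 0 to 10 for the interaction (89 to 5016). With both KO iPSC arrays averaged to 1 sample, 0 members (4 unadjusted) and 365 genes passed limma against the WT pluripotent arrays. For ESC against WT iPSC, 22 genes passed without the dimmest genes and 95 with trend and robust fitting. Some differences that did not pass in the main fits changed sign. The range over left-out arrays was -0.12 to 0.38 for Id3 against the WT pluripotent arrays and -0.20 to 0.68 in the interaction. Within iPSC it was -0.16 to 0.24 for Bmp2 and -0.56 to 0.33 for Id3. Between ESC and WT iPSC it was -0.33 to 0.25 for Id1, -0.0495 to 0.27 for Id2 and -1.61 to 1.50 for Grem1. Both ends of this last range came from fits that kept 1 WT iPSC array. So did both ends for Id3 within iPSC and in the interaction. Those fits hold no spread among WT iPSC, so their p-values are not read. Id3 was also -0.06 without WT iPSC replicate 2 against the WT pluripotent arrays. The cause was not tested. Centring each array moved the upward share of calls against the WT pluripotent arrays from 43.9% to 54.1%. Of the members' and other named genes' values in that comparison, 176 kept their direction and side of the threshold over the alternatives, 41 lost a call, 12 gained one and 2 changed sign. Centring moved the median of all genes in the interaction from 0.04 to 0.12.

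Replicate numbers did not pair the iPSC samples (correlation of deviations across genes 0.0166). With the replicate block, 4 members and 3279 genes passed within iPSC; without it, on the same 4 arrays, 3 and 3656 did. The member gained was Id1 (limma adjusted p = 0.0166), and the pathway genes Smad5 (0.0709) and Tcf4 (0.0717) no longer passed.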
